A study of Mus musculus with 10 samples.

Results

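Mouse CD8+ T cells that had been activated through CD3 and CD28 were kept for 48 h with interleukin 21 (IL-21) or with interleukin 2 (IL-2), and their poly(A) RNA was compared. The comparison uses 4 of the 10 libraries of the series, 2 with IL-21 and 2 with IL-2, all without a metabolic inhibitor. They were chosen by their labels alone, so no measured value decided which libraries belong. CD8+ T cells were isolated with a kit from the spleens of C57BL/6N mice, activated for 48 h on bound anti-CD3 with anti-CD28 in solution, each at 2 µg/ml, pooled, washed and plated again. They then received mouse IL-21 (100 ng/ml), human IL-2 (100 IU/ml) or no cytokine for 48 h. The 2 libraries without cytokine share the activation step and are given beside both groups. In 2 further groups of 2 libraries each, the lactate dehydrogenase inhibitor NCI-737 (LDHi, 1 µM) was present from activation on, together with IL-2 or IL-21, and these serve only for a test of whether the cytokine difference depends on it. What a replicate number stands for is not in the labels, so the p-values rest on the spread between libraries that may be technical repeats.

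IL-2 and IL-21 belong to the same cytokine family and share a receptor subunit, the common gamma chain, which signals through the kinases JAK1 and JAK3. IL-2 acts mainly through the transcription factor STAT5 and is known as the growth and effector cytokine of T cells, which it drives towards glycolysis and division. IL-21 acts mainly through STAT3, is made by helper T cells, and is known for supporting long-lived, less differentiated CD8+ T cells.

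The deposited tables give reads per transcript and RPKM, which is reads divided by the transcript's length and by the authors' library total. Those totals were 45338216 to 55304983 reads in the 4 libraries. In IL-21 replicate 2, 59.9% of the total lay on the transcripts used here, against 74.6 to 79.4% in the other 3 libraries, so its RPKM values run low beside the log2 differences, which come from counts scaled between libraries. The IL-21 libraries also differed more from each other than the IL-2 libraries did, with an SD of the log2 difference between replicates of 0.76 against 0.36 over genes. In IL-21 that replicate difference followed transcript GC content (Spearman correlation -0.61 over 9990 genes), as it did without cytokine (-0.67). It did so less, and with the opposite sign, with IL-2 (0.30), IL-2 and LDHi (0.31) and IL-21 and LDHi (0.40). The IL-21 minus IL-2 difference did not follow GC content (0.02) and correlated weakly with transcript length (0.14). That difference averages over replicates, so its correlation does not show how far single genes depended on GC content. Cd8b1, a chain of the CD8 coreceptor, stood at 249.5 and 282 RPKM with IL-2 and 446 and 344 with IL-21. Cd4 stood at 1.05 and 0.567 RPKM with IL-2 and 0.432 and 0.249 with IL-21. Markers of other blood cells differed between the groups and are given further on, beside the summed CD8 T cell markers.

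Of 14357 genes tested, 7123 (49.6%) were called at an adjusted p below 0.05, with edgeR's quasi-likelihood test and Benjamini-Hochberg adjustment over all genes tested. IL-21 gave higher levels of 3580 genes (24.9%) and lower levels of 3543 (24.7%). At least 2-fold differences were called for 1882 higher genes (13.1%) and 1908 lower genes (13.3%). The RPKM of the 2 and 2 libraries did not overlap for 9879 genes (68.8%). Log2 differences below are IL-21 minus IL-2 with their standard errors, n = 2 libraries a group, and their median over all genes tested was 0.02. Called genes were split into 50.3% higher, but into 30.9% higher by limma on log2(RPKM + 1), where the median of all genes lay at -0.10. Without IL-21 replicate 2 the counts were 3462 higher and 3644 lower, and without IL-2 replicate 1 they were 2055 and 2454. The higher count without IL-2 replicate 2 was 2256.

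**Figure D1:**
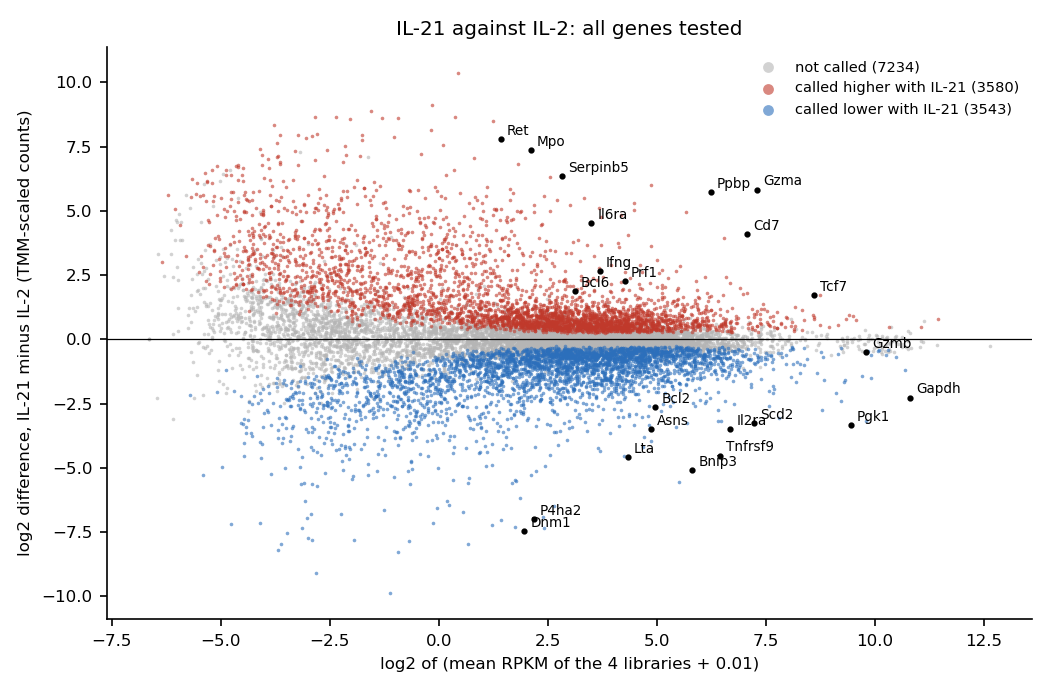
Each point is 1 of the 14357 genes tested. The horizontal axis is the log2 of the mean RPKM of the 4 libraries plus 0.01, the vertical axis the log2 difference between IL-21 and IL-2 from TMM-scaled counts, and red and blue mark the 3580 genes called higher and the 3543 called lower with IL-21. Gzma and Ppbp lie far above the line at high levels, and Pgk1, Gapdh and Tnfrsf9 far below it.

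The genes with the largest increases with IL-21 included a granzyme, a chemokine receptor and a receptor kinase. Gzma, which encodes granzyme A, a protease of killer cell granules, stood at 8.39 and 3.83 RPKM with IL-2, 369.9 and 252 with IL-21 and 13.4 and 6.21 without cytokine. Both IL-21 libraries lay far above all 4 others, and the fitted difference was 56.8-fold (log2 difference 5.83 ± 0.45, edgeR adjusted p = 2.38e-05). Serpinb5, a serine protease inhibitor family gene, stood at 0.228 and 0.162 RPKM with IL-2, 14.6 and 13.4 with IL-21 and 0.0899 and 0.0432 without cytokine, and it was 81.3-fold higher with IL-21 than with IL-2 (log2 difference 6.35 ± 0.28, edgeR adjusted p = 4.41e-06). Cxcr1, a chemokine receptor best known from neutrophils, stood at 0.0358 and 0.0965 RPKM with IL-2, 7.398 and 6.51 with IL-21 and 1.06 and 1.48 without cytokine. It rested on 2 and 6 reads with IL-2 and 442 and 332 reads with IL-21 (log2 difference 6.81 ± 0.38, edgeR adjusted p = 7.08e-06). Ret, a receptor tyrosine kinase for neurotrophic factors, stood at 0.0329 and 0.0197 RPKM with IL-2, 6.64 and 3.98 with IL-21 and 0.457 and 0.121 without cytokine and rested on 12 and 8 reads with IL-2 and 2592 and 1325 reads with IL-21 (log2 difference 7.80 ± 0.63, edgeR adjusted p = 2.98e-05). These 4 genes were lower without cytokine than with IL-21 in each library.

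Further genes among the 10 largest increases are known from other blood cells and were highest without cytokine. Mpo, the myeloperoxidase of neutrophil granules, stood at 0.0632 and 0.0568 RPKM with IL-2, 6.55 and 10.5 with IL-21 and 19.4 and 32.2 without cytokine. Ppbp, a platelet chemokine, stood at 3.22 and 3.13 RPKM with IL-2, 126 and 170.1 with IL-21 and 182 and 345 without cytokine. Prg2, an eosinophil and basophil granule protein, stood at 0.0720 and 0.151 RPKM with IL-2, 7.23 and 4.82 with IL-21 and 12.9 and 23.0 without cytokine. All 3 lay near 0 or at a low level with IL-2 and higher with IL-21, with log2 differences of 7.35 ± 0.57, 5.75 ± 0.38 and 5.85 ± 0.64. Car1, a red cell carbonic anhydrase (0.0680 and 0.260 RPKM with IL-2, 6.04 and 16.9 with IL-21 and 24.3 and 62.7 without cytokine), and Clec1b, the platelet receptor CLEC-2 (0.172 and 0.108 RPKM with IL-2, 5.71 and 6.96 with IL-21 and 7.88 and 12.3 without cytokine), showed the same order. Xkrx stood at 1.53 and 0.679 RPKM with IL-2 and 2.00 and 112 with IL-21, so its difference (log2 difference 6.02 ± 1.59, edgeR adjusted p = 0.0128) rested on IL-21 replicate 2, and the call was lost without that library (log2 difference 0.89). It was also lost without either IL-2 library (edgeR adjusted p = 0.0704 without replicate 1 and 0.0956 without replicate 2).

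The largest decreases were in genes that were high with IL-2 and near 0 with IL-21 and without cytokine. Dnm1, a dynamin of vesicle fission known mainly from neurons, stood at 6.95 and 8.41 RPKM with IL-2, 0.0298 and 0.0466 with IL-21 and 0.0328 and 0.0703 without cytokine, which is 178-fold lower with IL-21 (log2 difference -7.47 ± 0.40, edgeR adjusted p = 6.17e-06). P4ha2, a collagen prolyl hydroxylase subunit and target of the hypoxia factor HIF-1, stood at 10.2 and 7.69 RPKM with IL-2, 0.0824 and 0.0386 with IL-21 and 0.0932 and 0.0679 without cytokine (log2 difference -7.01 ± 0.44, edgeR adjusted p = 9.87e-06). Mgarp, a mitochondrial protein known as hypoxia-induced, stood at 12.9 and 7.83 RPKM with IL-2, 0.118 and 0.0309 with IL-21 and 0.199 and 0.0310 without cytokine (log2 difference -6.90 ± 0.65, edgeR adjusted p = 6.25e-05). The 2 IL-2 libraries lay above the other 4 for each of these genes. Gpld1, a phospholipase that cleaves GPI anchors, stood at 11.4 and 13.1 RPKM with IL-2 and 0.170 and 0.0710 with IL-21 (log2 difference -6.502 ± 0.49, edgeR adjusted p = 2.08e-05). Fut4, a fucosyltransferase, stood at 6.13 and 6.38 RPKM with IL-2 and 0.0976 and 0.132 with IL-21 (log2 difference -5.58 ± 0.38, edgeR adjusted p = 1.34e-05). Gpt2, the mitochondrial alanine aminotransferase, stood at 6.55 and 6.89 RPKM with IL-2, 0.110 and 0.147 with IL-21 and 0.197 and 0.179 without cytokine (log2 difference -5.53 ± 0.32, edgeR adjusted p = 7.18e-06). Their IL-2 and IL-21 libraries did not overlap. Fam183b rested on 270 and 358 reads with IL-2 and 1 and 2 reads with IL-21, and Nupr1, a stress-induced nuclear protein and ATF4 target, stood at 4.66 and 5.98 RPKM with IL-2 and 0 and 0.0705 with IL-21, the latter from 0 and 2 reads, so no fold is given for these 2 genes. Hspa1a, an inducible HSP70 chaperone, stood at 0.0863 and 13.1 RPKM with IL-2 and 0.0269 and 0.0473 with IL-21 and was high in IL-2 replicate 2 alone. Its call was lost without that library (edgeR adjusted p = 0.283) and without either IL-21 library (0.121 without replicate 1 and 0.105 without replicate 2).

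Among the gene lists, most members of the HIF-1, glycolysis, ATF4, sterol, mitosis and DNA replication lists were called lower with IL-21, while the called members of the chemokine receptor, lectin-like receptor and memory surface lists were mostly higher. The plot of the gene lists orders them by their median. Counts of called members below stand beside 24.9% higher and 24.7% lower, 49.6% together, over all genes tested. Among the lists plotted, a smaller share was called in the JAK-STAT (18.2%), respiratory chain (28.3%), autophagy (38.5%), cytotoxic granule (41.7%) and polyamine (42.9%) lists. The same held for the fatty acid oxidation (43.5%), redox (44.4%), TCA cycle (45%), quiescence (45.5%) and T cell receptor (48%) lists. Without IL-21 replicate 2 the median of the chemokine receptors was 0.46 in place of 1.06, that of the lectin-like receptors 0.66 in place of 1.00, and that of the memory surface genes 0.81 in place of 0.74, so their order changed.

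**Figure D2:**
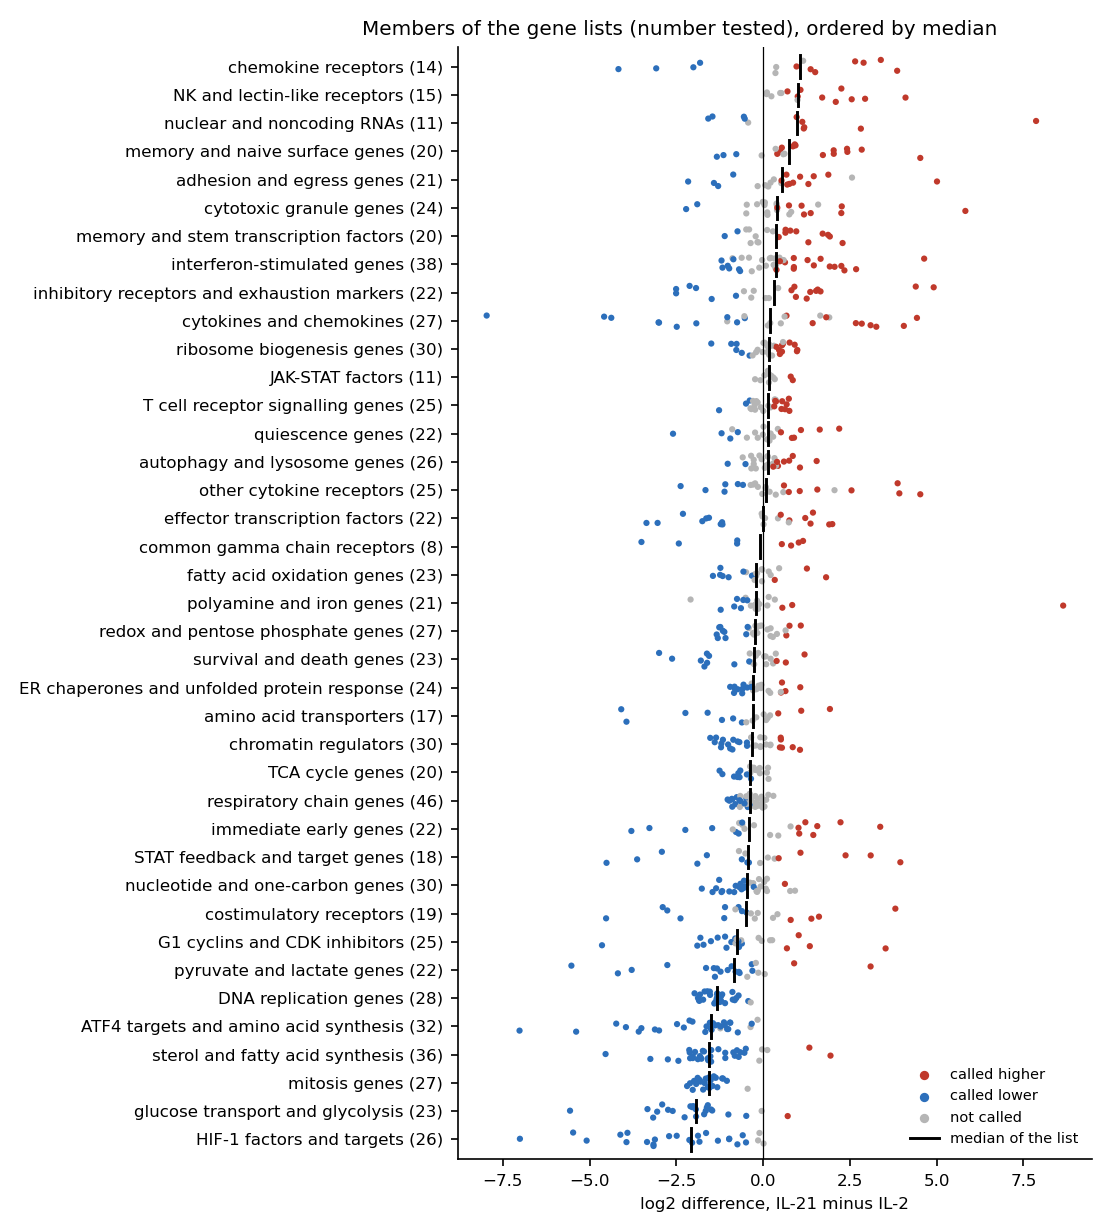
Each point is a member of a gene list, placed by its log2 difference between IL-21 and IL-2; red points were called higher, blue points called lower, grey points not called, and the black bar is the list's median. The number tested stands beside each name, and cell type marker lists are left out. HIF-1 factors and targets (median -2.09), glycolysis (-1.94) and mitosis genes (-1.56) lie lowest, and chemokine receptors (1.06) and lectin-like receptors (1.00) highest.

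Receptor genes of the common gamma chain family were split: of 8 tested, 4 were higher and 4 lower with IL-21, beside backgrounds of 24.9% and 24.7% of all genes. Il2ra, the high-affinity subunit of the IL-2 receptor (CD25), stood at 187 and 194 RPKM with IL-2, 9.87 and 18.7 with IL-21 and 8.197 and 6.81 without cytokine. Its IL-21 libraries lay far below its IL-2 libraries (log2 difference -3.51 ± 0.35, edgeR adjusted p = 8.17e-05). Il21r, the ligand-binding subunit of the IL-21 receptor, stood at 47.6 and 49.9 RPKM with IL-2, 100.3 and 76.5 with IL-21 and 37.3 and 28.7 without cytokine, above both other groups with IL-21 (log2 difference 1.02 ± 0.13, edgeR adjusted p = 3.03e-04). Il2rg, the common gamma chain itself, stood at 206.5 and 225 RPKM with IL-2, 455 and 392.5 with IL-21 and 276 and 231 without cytokine (log2 difference 1.15 ± 0.12, edgeR adjusted p = 9.76e-05). The subunit shared by all these receptors and the one specific to IL-21 were thus higher with IL-21, and the one specific to IL-2 was lower. Il2rb, the subunit that IL-2 shares with IL-15, stood at 254 and 224 RPKM with IL-2 and 167 and 92.0 with IL-21 (log2 difference -0.75 ± 0.26, edgeR adjusted p = 0.0401). Il7r, the IL-7 receptor of naive and memory T cells, stood at 77.3 and 81.6 RPKM with IL-2, 100.4 and 102 with IL-21 and 147 and 188 without cytokine (log2 difference 0.54 ± 0.18, edgeR adjusted p = 0.0311). The calls of Il2rb and Il7r were lost in 11 and 6 of 22 alternative fits. With replicate 1 or replicate 2 of IL-2 left out, the edgeR adjusted p of Il2rb was 0.177 or 0.0954, and it lay between 0.0605 and 0.0625 when any 1 of the LDHi libraries was. That of Il7r was 0.14 or 0.102 with the same IL-2 libraries left out. In the fit that leaves out IL-21 replicate 2 the values were 0.155 for Il2rb and 0.122 for Il7r, and the family had 3 higher and 2 lower.

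Among 25 other cytokine receptor genes 8 were higher and 6 lower. Il6ra, the IL-6 receptor of naive and memory cells, stood at 0.843 and 1.27 RPKM with IL-2, 20.3 and 22.5 with IL-21 and 17.0 and 20.1 without cytokine. Its IL-21 libraries resembled those without cytokine in level, and its IL-2 libraries were 23.1-fold lower than the former (log2 difference 4.53 ± 0.22, edgeR adjusted p = 4.62e-06). Il6st, the signalling subunit gp130 of the IL-6 family, stood at 17.5 and 19.0 RPKM with IL-2, 33.5 and 33.1 with IL-21 and 37.8 and 39.2 without cytokine (log2 difference 1.05 ± 0.12, edgeR adjusted p = 1.73e-04). Il27ra, the IL-27 receptor, stood at 24.4 and 24.3 RPKM with IL-2 and 85.4 and 45.2 with IL-21 (log2 difference 1.56 ± 0.20, edgeR adjusted p = 3.14e-04). Il12rb1, a subunit of the IL-12 receptor, went the other way, at 25.5 and 26.2 RPKM with IL-2, 9.41 and 5.36 with IL-21 and 7.81 and 6.74 without cytokine (log2 difference -1.66 ± 0.19, edgeR adjusted p = 1.46e-04). Csf2rb, the common beta chain of the GM-CSF receptor, which myeloid cells and basophils carry, stood at 0.232 and 0.368 RPKM with IL-2, 2.85 and 4.999 with IL-21 and 8.83 and 18.1 without cytokine (log2 difference 3.92 ± 0.52, edgeR adjusted p = 3.54e-04), beside the myeloid markers described further on. In these bulk libraries, fewer cells of a type and less RNA per cell cannot be told apart.

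Of 11 JAK-STAT factors, 2 were called, both higher with IL-21, and without IL-21 replicate 2 there were 5 higher and 0 lower. Jak1, a kinase of all gamma chain receptors, stood at 114 and 115 RPKM with IL-2, 214.7 and 155 with IL-21 and 247 and 211.7 without cytokine (log2 difference 0.85 ± 0.12, edgeR adjusted p = 4.84e-04). Stat5a stood at 14.0 and 15.9 RPKM with IL-2 and 25.9 and 20.2 with IL-21 (log2 difference 0.79 ± 0.12, edgeR adjusted p = 6.29e-04). Stat3, the main factor of IL-21, stood at 44.4 and 52.9 RPKM with IL-2 and 62.5 and 44.0 with IL-21 and was not called (log2 difference 0.29 ± 0.12, edgeR adjusted p = 0.0774). In RPKM, which runs low in IL-21 replicate 2, the IL-21 libraries of Stat3 overlapped those with IL-2. Without IL-21 replicate 2 the log2 difference of Stat3 was 0.39. Stat3 was called higher when counts were scaled by library size alone (log2 difference 0.36, edgeR adjusted p = 0.0333). It was also called higher with a filter of 5 RPKM in 2 libraries (log2 difference 0.33, edgeR adjusted p = 0.0361).

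Feedback and target genes of the STAT factors separated the cytokines more sharply, with 5 of 18 higher and 8 lower with IL-21. Cish, a SOCS family inhibitor known as a STAT5 target, stood at 44.0 and 38.2 RPKM with IL-2, 6.66 and 3.23 with IL-21 and 2.13 and 2.41 without cytokine. Socs2, a further inhibitor of that family, stood at 26.6 and 29.9 RPKM with IL-2, 2.08 and 1.95 with IL-21 and 1.75 and 2.28 without cytokine. Socs3, the inhibitor known as a STAT3 target that blocks IL-6 family signalling, stood at 12.6 and 12.3 RPKM with IL-2, 213.99 and 134 with IL-21 and 16.1 and 16.3 without cytokine. Cish and Socs2 were high with IL-2 (log2 difference -2.92 ± 0.24, edgeR adjusted p = 3.08e-05 for Cish and -3.63 ± 0.21 for Socs2), and Socs3 was high with IL-21, above all 4 other libraries (log2 difference 3.95 ± 0.17, edgeR adjusted p = 4.41e-06). Bcl3, a nuclear IkB protein that supports T cell survival, stood at 12.2 and 15.0 RPKM with IL-2, 64.6 and 60.0 with IL-21 and 8.60 and 6.54 without cytokine (log2 difference 2.37 ± 0.17, edgeR adjusted p = 1.54e-05). Gadd45g, a stress and cytokine response gene, stood at 7.27 and 7.43 RPKM with IL-2, 70.7 and 42.9 with IL-21 and 1.76 and 2.01 without cytokine (log2 difference 3.10 ± 0.20, edgeR adjusted p = 1.18e-05). Xbp1, the transcription factor of secretory cells, stood at 58.5 and 57.6 RPKM with IL-2, 19.5 and 14.2 with IL-21 and 17.2 and 20.4 without cytokine (log2 difference -1.62 ± 0.12, edgeR adjusted p = 1.61e-05). Bcl3 and Gadd45g resembled Socs3 in that their IL-21 libraries lay above those of both other groups.

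The 250 bases before the RefSeq start of Socs3 (GRCm38.p6, chr11:117969367-117969616, - strand) are shown because Socs3 had the largest increase among these feedback genes. Capitals mark the match, on either strand, to the STAT motif TTCNNNGAA, which lies 154 bases before the start. Socs3 was chosen for this after its value and its match were seen, as were the other promoters below, each shown because it holds the motif in question.
Socs3: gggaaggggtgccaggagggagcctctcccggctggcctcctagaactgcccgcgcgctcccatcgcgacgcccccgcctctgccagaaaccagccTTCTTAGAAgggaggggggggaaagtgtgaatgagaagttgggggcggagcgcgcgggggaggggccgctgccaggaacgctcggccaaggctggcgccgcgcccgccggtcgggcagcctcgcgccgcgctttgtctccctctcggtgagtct
The motif was found in 1 of 13 promoters of the feedback list (7.69%) and in 6.08% of the 10500 promoters of genes tested. Promoters of genes called at least 2-fold higher with IL-21 held it in 6.12% and those of genes called at least 2-fold lower in 5.28%.

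Of 24 cytotoxic granule and death ligand genes, 8 were called higher with IL-21 and 2 lower. Prf1, the pore-forming perforin, stood at 7.31 and 7.30 RPKM with IL-2, 33.4 and 28.9 with IL-21 and 11.9 and 10.3 without cytokine. It was 4.81-fold higher with IL-21 (log2 difference 2.26 ± 0.11, edgeR adjusted p = 4.62e-06). Gzmb, granzyme B, stood at 1148 and 1027 RPKM with IL-2, 672 and 692 with IL-21 and 22.2 and 13.3 without cytokine and was not called (log2 difference -0.49 ± 0.23, edgeR adjusted p = 0.109), although its IL-21 libraries lay below its IL-2 libraries. It was called, at the same difference, without either of the libraries that had no cytokine (edgeR adjusted p = 0.0423 without replicate 1 and 0.0409 without replicate 2). Granzyme B was thus high with either cytokine and low without, while granzyme A was high with IL-21 alone. Tnfsf10, the death ligand TRAIL, stood at 9.02 and 10.5 RPKM with IL-2, 19.3 and 19.6 with IL-21 and 6.74 and 7.81 without cytokine (log2 difference 1.18 ± 0.14, edgeR adjusted p = 1.99e-04). Ctsd, a lysosomal protease, stood at 122 and 127 RPKM with IL-2, 308 and 178 with IL-21 and 243 and 214.7 without cytokine (log2 difference 1.11 ± 0.16, edgeR adjusted p = 5.23e-04). Fasl, the ligand of the death receptor FAS, stood at 12.6 and 11.3 RPKM with IL-2, 2.21 and 2.30 with IL-21 and 1.09 and 0.928 without cytokine (log2 difference -2.22 ± 0.26, edgeR adjusted p = 1.92e-04). Serpinb6b, a granzyme inhibitor family gene, stood at 89.1 and 113 RPKM with IL-2, 25.1 and 22.7 with IL-21 and 18.3 and 16.8 without cytokine (log2 difference -1.90 ± 0.13, edgeR adjusted p = 1.31e-05). Fasl and Serpinb6b were the 2 members lower with IL-21. Gzma and Gzmb belong to a family of similar genes, and the labels do not say how reads shared between them were counted.

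Secreted signals were split, with 9 of 27 cytokine and chemokine genes higher and 10 lower. Ifng, interferon gamma, the main effector cytokine of CD8+ T cells, stood at 3.35 and 4.36 RPKM with IL-2, 25.5 and 18.4 with IL-21 and 1.396 and 1.01 without cytokine. It was 6.37-fold higher with IL-21 than with IL-2 (log2 difference 2.67 ± 0.24, edgeR adjusted p = 5.39e-05) and lowest without cytokine. Ccl4, a chemokine that attracts T cells and macrophages, stood at 1.59 and 3.45 RPKM with IL-2, 51.2 and 25.3 with IL-21 and 3.92 and 4.63 without cytokine (log2 difference 4.05 ± 0.38, edgeR adjusted p = 6.26e-05). Flt3l, a growth factor of dendritic cells, stood at 13.7 and 16.6 RPKM with IL-2, 40.4 and 31.9 with IL-21 and 33.9 and 23.8 without cytokine (log2 difference 1.43 ± 0.16, edgeR adjusted p = 1.65e-04). Ligands of the tumour necrosis factor family went both ways, since Tnfsf10 was higher and the next 3 were lower. Lta, lymphotoxin alpha, stood at 38.5 and 39.0 RPKM with IL-2, 1.51 and 1.36 with IL-21 and 9.11 and 7.08 without cytokine (log2 difference -4.58 ± 0.16, edgeR adjusted p = 3.05e-06). Tnf stood at 15.7 and 11.9 RPKM with IL-2, 3.66 and 2.82 with IL-21 and 2.80 and 3.19 without cytokine (log2 difference -1.93 ± 0.21, edgeR adjusted p = 1.30e-04). Tnfsf11, the ligand RANKL, stood at 3.70 and 4.56 RPKM with IL-2, 0.244 and 0.109 with IL-21 and 0.524 and 0.664 without cytokine (log2 difference -4.38 ± 0.31, edgeR adjusted p = 1.48e-05). Lta was below the level without cytokine in the IL-21 libraries, while Tnf was close to it.

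**Figure D3:**
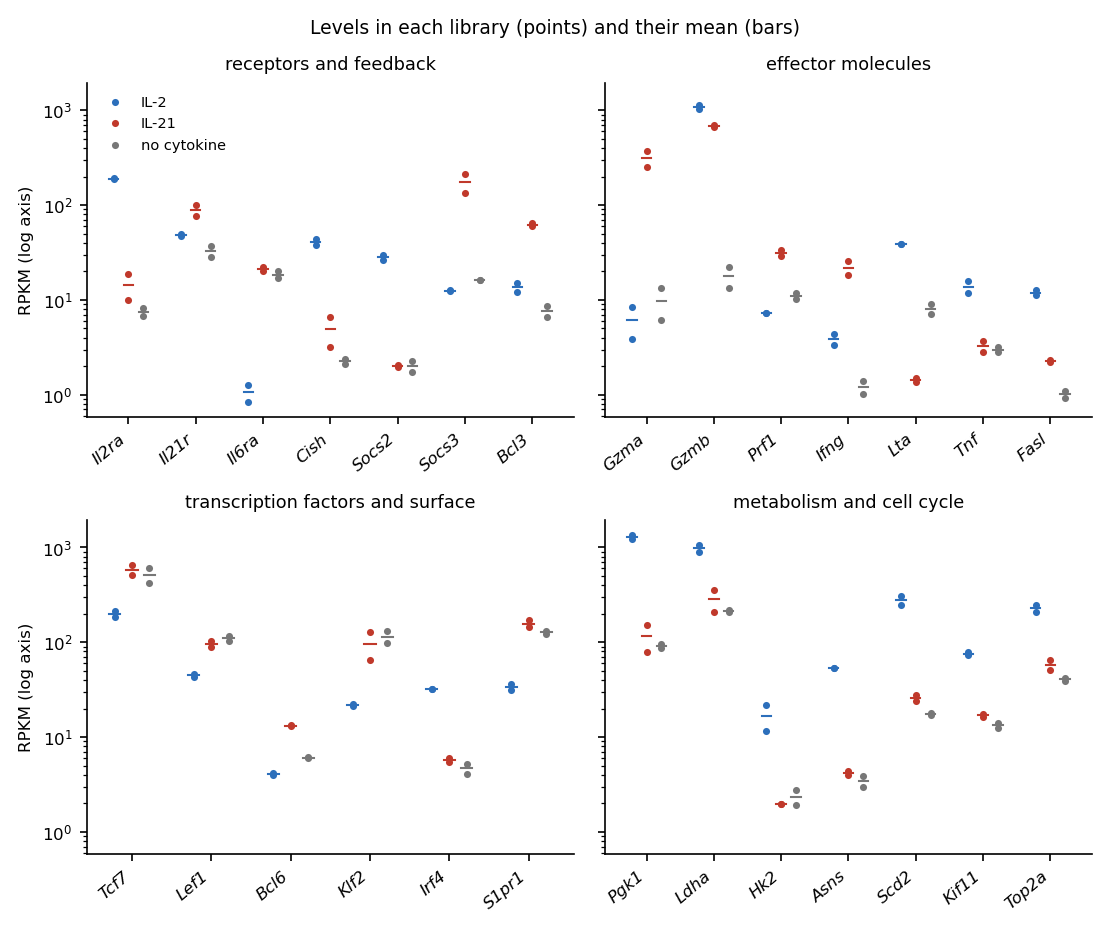
Points are RPKM in each of 2 libraries a group on a log axis and short bars the group mean, for IL-2 (blue), IL-21 (red) and no cytokine (grey). Gzma, Socs3 and Ifng are highest with IL-21, Gzmb is high with either cytokine, and the metabolic and cell cycle genes of the last panel are highest with IL-2.

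Of 20 transcription factors of memory and stem-like T cells, 10 were higher with IL-21 and 2 lower. Tcf7, which encodes TCF1, the factor of stem-like memory cells, stood at 186 and 212.6 RPKM with IL-2, 649.9 and 512 with IL-21 and 602 and 424 without cytokine. The 2 IL-21 libraries lay above the IL-2 libraries and near those without cytokine (log2 difference 1.71 ± 0.16, edgeR adjusted p = 6.50e-05). Lef1, a relative of TCF1, stood at 43.4 and 45.9 RPKM with IL-2, 88.7 and 103 with IL-21 and 116 and 104 without cytokine (log2 difference 1.30 ± 0.16, edgeR adjusted p = 2.71e-04). Klf2, the factor that keeps T cells recirculating, stood at 21.3 and 22.2 RPKM with IL-2, 129 and 64.8 with IL-21 and 130 and 98.0 without cytokine (log2 difference 2.29 ± 0.22, edgeR adjusted p = 7.38e-05). Foxo1, which drives naive and memory genes, stood at 22.1 and 21.3 RPKM with IL-2, 38.2 and 35.9 with IL-21 and 40.8 and 37.2 without cytokine (log2 difference 0.95 ± 0.11, edgeR adjusted p = 1.74e-04). Each of these had similar levels with IL-21 and without cytokine. Bcl6, a repressor of effector fate and a known STAT3 target, stood at 4.02 and 4.22 RPKM with IL-2, 13.1 and 13.4 with IL-21 and 6.10 and 6.08 without cytokine, higher with IL-21 than in either other group (log2 difference 1.87 ± 0.13, edgeR adjusted p = 1.41e-05). Klf3 stood at 7.76 and 9.38 RPKM with IL-2 and 23.5 and 32.7 with IL-21 (log2 difference 1.92 ± 0.23, edgeR adjusted p = 1.99e-04).

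Effector transcription factors had 7 of 22 members higher and 9 lower. Prdm1, which encodes Blimp-1, the driver of terminal effector fate and antagonist of BCL6, stood at 3.76 and 2.95 RPKM with IL-2, 1.496 and 1.14 with IL-21 and 0.980 and 0.883 without cytokine (log2 difference -1.18 ± 0.18, edgeR adjusted p = 7.55e-04). Irf4, a factor of T cell activation and expansion, stood at 32.4 and 32.0 RPKM with IL-2, 5.95 and 5.51 with IL-21 and 5.24 and 4.11 without cytokine (log2 difference -2.31 ± 0.18, edgeR adjusted p = 2.72e-05). Nfil3 stood at 34.7 and 29.7 RPKM with IL-2, 3.43 and 2.19 with IL-21 and 2.12 and 2.18 without cytokine (log2 difference -3.36 ± 0.16, edgeR adjusted p = 4.62e-06). Batf3 stood at 15.8 and 18.4 RPKM with IL-2, 2.246 and 1.46 with IL-21 and 7.20 and 3.58 without cytokine (log2 difference -3.04 ± 0.33, edgeR adjusted p = 1.23e-04). All 4 were high with IL-2, and all but Batf3 had similar levels with IL-21 and without cytokine. Gata3, the factor of type 2 responses, stood at 13.5 and 11.6 RPKM with IL-2 and 4.89 and 4.59 with IL-21 (log2 difference -1.22 ± 0.15, edgeR adjusted p = 2.75e-04). Id2, an inhibitor of E proteins known from effector cells, went the other way, at 63.8 and 42.1 RPKM with IL-2, 205.8 and 169 with IL-21 and 50.4 and 45.1 without cytokine, and its IL-21 libraries lay above both other groups (log2 difference 1.99 ± 0.24, edgeR adjusted p = 2.42e-04). Ikzf3, the zinc finger factor Aiolos, stood at 30.6 and 32.7 RPKM with IL-2, 73.6 and 70.0 with IL-21 and 103 and 84.5 without cytokine (log2 difference 1.36 ± 0.13, edgeR adjusted p = 7.70e-05).

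Surface genes of naive and memory T cells were higher with IL-21 in 13 of 20 members and lower in 3. S1pr1, the receptor for exit from lymph nodes, stood at 36.5 and 31.1 RPKM with IL-2, 144 and 171 with IL-21 and 122 and 132 without cytokine. Every IL-21 library lay above the libraries of both other groups (log2 difference 2.42 ± 0.20, edgeR adjusted p = 3.02e-05). Actn1, an actin crosslinker, stood at 12.1 and 13.04 RPKM with IL-2, 95.1 and 65.9 with IL-21 and 112 and 92.8 without cytokine (log2 difference 2.84 ± 0.14, edgeR adjusted p = 4.62e-06). Igfbp4, an insulin-like growth factor binding protein of naive T cells, stood at 27.5 and 19.6 RPKM with IL-2, 131 and 96.3 with IL-21 and 5.03 and 5.75 without cytokine (log2 difference 2.43 ± 0.17, edgeR adjusted p = 1.68e-05) and was higher with IL-21 than in both other groups. Itgae, the integrin CD103 of tissue-resident cells, stood at 1.44 and 1.53 RPKM with IL-2, 6.68 and 4.28 with IL-21 and 17.5 and 12.8 without cytokine (log2 difference 2.03 ± 0.17, edgeR adjusted p = 3.87e-05) and was highest without cytokine.

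Quiescence genes, which restrain growth in resting T cells, were higher in 6 of 22 and lower in 4, so 45.5% were called beside 49.6% of all genes tested. Btg1, an antiproliferative gene, stood at 36.6 and 43.8 RPKM with IL-2, 194 and 135 with IL-21 and 129 and 118 without cytokine (log2 difference 2.19 ± 0.16, edgeR adjusted p = 1.70e-05). Slfn2, which keeps T cells at rest, stood at 65.2 and 68.2 RPKM with IL-2, 161 and 95.7 with IL-21 and 200.2 and 164 without cytokine (log2 difference 1.09 ± 0.17, edgeR adjusted p = 8.54e-04). Ddit4, the mTORC1 inhibitor REDD1 and a known hypoxia and ATF4 target, stood at 116 and 89.3 RPKM with IL-2, 18.5 and 12.02 with IL-21 and 14.0 and 14.3 without cytokine and was lower with IL-21 (log2 difference -2.60 ± 0.28, edgeR adjusted p = 1.31e-04). Txnip, a brake on glucose uptake, stood at 179 and 138 RPKM with IL-2 and 204 and 143 with IL-21 and was not called (log2 difference 0.29 ± 0.16, edgeR adjusted p = 0.167).

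Costimulatory receptors, among them members of the tumour necrosis factor receptor family, were lower in 9 of 19 members and higher in 4. Tnfrsf9, the receptor 4-1BB, stood at 169 and 166 RPKM with IL-2, 5.98 and 6.74 with IL-21 and 5.91 and 5.35 without cytokine. It was 23.1-fold lower with IL-21, where it lay near its level without cytokine (log2 difference -4.53 ± 0.17, edgeR adjusted p = 3.51e-06). Tnfrsf4, the receptor OX40, stood at 37.1 and 36.9 RPKM with IL-2, 4.87 and 3.97 with IL-21 and 5.85 and 4.89 without cytokine (log2 difference -2.89 ± 0.15, edgeR adjusted p = 4.62e-06). Tnfrsf18, the receptor GITR, stood at 121 and 119 RPKM with IL-2, 27.3 and 14.4 with IL-21 and 20.6 and 14.7 without cytokine (log2 difference -2.38 ± 0.21, edgeR adjusted p = 4.78e-05). Tnfrsf8, the receptor CD30, stood at 22.7 and 17.9 RPKM with IL-2, 2.94 and 2.38 with IL-21 and 0.428 and 0.253 without cytokine (log2 difference -2.76 ± 0.32, edgeR adjusted p = 1.87e-04). These 4 receptors are induced by T cell activation, and all were high in the IL-2 libraries only. Tnfrsf14, the receptor HVEM, stood at 12.7 and 13.2 RPKM with IL-2, 49.8 and 22.4 with IL-21 and 40.9 and 30.3 without cytokine and was higher with IL-21 (log2 difference 1.61 ± 0.25, edgeR adjusted p = 9.07e-04).

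Inhibitory receptors and exhaustion markers showed no common direction, with 10 of 22 higher and 6 lower. Ctla4, the inhibitor of CD28 costimulation, stood at 188 and 192 RPKM with IL-2, 36.7 and 23.3 with IL-21 and 69.7 and 51.3 without cytokine (log2 difference -2.51 ± 0.22, edgeR adjusted p = 3.87e-05). Entpd1, the ectonucleotidase CD39, stood at 5.48 and 5.26 RPKM with IL-2, 0.834 and 0.830 with IL-21 and 0.947 and 0.845 without cytokine (log2 difference -2.51 ± 0.18, edgeR adjusted p = 1.73e-05). Nr4a3, a nuclear receptor of antigen receptor signalling, stood at 2.92 and 3.23 RPKM with IL-2 and 0.649 and 0.761 with IL-21 (log2 difference -1.93 ± 0.26, edgeR adjusted p = 4.24e-04). Those 3 were lower with IL-21. Pdcd1, the receptor PD-1, stood at 5.21 and 6.23 RPKM with IL-2, 7.30 and 3.65 with IL-21 and 1.65 and 1.34 without cytokine, its libraries overlapped, and it was not called (log2 difference 0.07 ± 0.24, edgeR adjusted p = 0.818). Cd96 stood at 48.9 and 54.1 RPKM with IL-2, 82.1 and 77.6 with IL-21 and 82.3 and 77.6 without cytokine (log2 difference 0.82 ± 0.11, edgeR adjusted p = 3.90e-04). Klrg1, a receptor of terminal effector cells, stood at 0.0295 and 0.0530 RPKM with IL-2, 0.938 and 0.695 with IL-21 and 0.546 and 0.487 without cytokine, low in all libraries and lowest with IL-2, resting on 2 and 4 reads with IL-2 and 68 and 43 reads with IL-21. Tigit stood at 21.2 and 26.5 RPKM with IL-2 and 20.005 and 15.2 with IL-21 and was not called (log2 difference -0.27 ± 0.17, edgeR adjusted p = 0.204).

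Chemokine receptors were higher in 7 of 14 members and lower in 4. Cxcr6, a receptor of tissue-homing T cells, stood at 25.8 and 27.6 RPKM with IL-2, 72.9 and 50.6 with IL-21 and 37.0 and 45.0 without cytokine (log2 difference 1.37 ± 0.15, edgeR adjusted p = 1.34e-04). Ccr9, the gut-homing receptor, stood at 1.38 and 1.72 RPKM with IL-2, 8.94 and 8.24 with IL-21 and 15.8 and 20.2 without cytokine (log2 difference 2.65 ± 0.20, edgeR adjusted p = 2.35e-05). Cxcr6 was highest with IL-21, and Ccr9 was highest without cytokine. Cxcr4, the bone marrow homing receptor, stood at 28.6 and 24.5 RPKM with IL-2, 5.16 and 6.33 with IL-21 and 24.1 and 28.3 without cytokine, so that the IL-21 libraries were the lowest of the 6 (log2 difference -2.01 ± 0.21, edgeR adjusted p = 9.49e-05). Ccrl2, an atypical receptor, stood at 3.49 and 4.40 RPKM with IL-2 and 0.187 and 0.199 with IL-21 (log2 difference -4.17 ± 0.39, edgeR adjusted p = 5.86e-05).

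Of 21 adhesion and egress genes, 10 were called higher and 4 lower. Itgax, the integrin CD11c, which marks dendritic cells and is also found on activated T cells, stood at 0.410 and 0.377 RPKM with IL-2, 12.5 and 10.1 with IL-21 and 6.84 and 3.67 without cytokine (log2 difference 5.01 ± 0.29, edgeR adjusted p = 7.20e-06). Unlike those of Csf2rb above, its IL-21 libraries lay above the libraries without cytokine. Icam1 stood at 16.0 and 17.3 RPKM with IL-2 and 35.4 and 26.8 with IL-21 (log2 difference 1.06 ± 0.13, edgeR adjusted p = 2.66e-04). Icam2 stood at 6.73 and 7.16 RPKM with IL-2, 32.8 and 14.0 with IL-21 and 32.0 and 27.8 without cytokine (log2 difference 1.88 ± 0.26, edgeR adjusted p = 4.27e-04). Alcam, the ligand of CD6, stood at 10.7 and 10.2 RPKM with IL-2 and 3.41 and 3.998 with IL-21 and was lower with IL-21 (log2 difference -1.30 ± 0.17, edgeR adjusted p = 4.11e-04).

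Lectin-like and other receptors known from natural killer (NK) cells were higher with IL-21 in 9 of 15 members, and the other 6 were not called. Cd7, an immunoglobulin family surface protein of T and NK cells, stood at 14.9 and 18.1 RPKM with IL-2, 302 and 206.3 with IL-21 and 46.2 and 32.1 without cytokine. The IL-21 libraries lay far above all others (log2 difference 4.10 ± 0.19, edgeR adjusted p = 4.62e-06). Klra7, a Ly49 receptor, stood at 18.5 and 22.1 RPKM with IL-2, 39.5 and 35.9 with IL-21 and 13.6 and 11.1 without cytokine (log2 difference 1.07 ± 0.15, edgeR adjusted p = 4.29e-04). Klra3 stood at 3.74 and 4.14 RPKM with IL-2, 10.5 and 11.9 with IL-21 and 2.73 and 4.06 without cytokine (log2 difference 1.70 ± 0.24, edgeR adjusted p = 4.99e-04). Klra9 stood at 1.28 and 1.35 RPKM with IL-2, 4.16 and 5.58 with IL-21 and 0.787 and 1.00 without cytokine (log2 difference 2.09 ± 0.29, edgeR adjusted p = 5.30e-04). All 3 Ly49 genes were highest with IL-21, but they are near-identical copies, and reads may have been split between them. Tyrobp, the adaptor DAP12, stood at 1.28 and 1.73 RPKM with IL-2, 8.24 and 7.404 with IL-21 and 23.4 and 31.4 without cytokine (log2 difference 2.55 ± 0.29, edgeR adjusted p = 1.53e-04). Fcgr3, the Fc receptor CD16, stood at 0.892 and 1.08 RPKM with IL-2, 6.67 and 6.67 with IL-21 and 12.5 and 21.5 without cytokine (log2 difference 2.94 ± 0.29, edgeR adjusted p = 8.19e-05). Myeloid cells also carry both, both were highest without cytokine as the myeloid markers were, and the part of such cells in these values was not tested.

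Survival and death genes were lower in 9 of 23 and higher in 3. Bcl2, the survival protein known to be induced by IL-2 and IL-7, stood at 55.2 and 54.0 RPKM with IL-2, 7.57 and 7.97 with IL-21 and 6.87 and 8.85 without cytokine (log2 difference -2.62 ± 0.17, edgeR adjusted p = 1.26e-05). Bcl2l1, which encodes BCL-xL, stood at 17.9 and 21.1 RPKM with IL-2, 5.56 and 4.42 with IL-21 and 6.78 and 7.57 without cytokine (log2 difference -1.80 ± 0.14, edgeR adjusted p = 2.06e-05). Mcl1, a further survival protein of the family, stood at 56.6 and 59.0 RPKM with IL-2, 126 and 108 with IL-21 and 103 and 104 without cytokine (log2 difference 1.19 ± 0.10, edgeR adjusted p = 3.06e-05). The first 2 survival genes were high with IL-2 and the third was low with it. Cdkn1a, the cell cycle inhibitor p21, stood at 46.0 and 27.7 RPKM with IL-2, 3.76 and 4.33 with IL-21 and 4.05 and 5.30 without cytokine (log2 difference -2.999 ± 0.28, edgeR adjusted p = 5.93e-05).

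Immediate early genes split into 7 of 22 higher and 7 lower. Jun stood at 11.6 and 14.3 RPKM with IL-2, 36.0 and 31.4 with IL-21 and 4.10 and 3.14 without cytokine (log2 difference 1.56 ± 0.15, edgeR adjusted p = 6.22e-05). Zfp36, a protein that destabilises cytokine RNA, stood at 64.8 and 73.2 RPKM with IL-2, 159 and 126 with IL-21 and 55.1 and 46.8 without cytokine (log2 difference 1.22 ± 0.12, edgeR adjusted p = 8.73e-05). Egr2, a factor of antigen receptor signalling, stood at 0.787 and 0.524 RPKM with IL-2, 3.01 and 2.45 with IL-21 and 2.98 and 2.94 without cytokine (log2 difference 2.23 ± 0.23, edgeR adjusted p = 1.03e-04). Egr3 stood at 0.327 and 0.409 RPKM with IL-2, 3.53 and 3.24 with IL-21 and 2.68 and 1.81 without cytokine (log2 difference 3.37 ± 0.28, edgeR adjusted p = 3.32e-05). The 2 EGR genes were low with IL-2, while Jun and Zfp36 were highest with IL-21. Atf3, a stress-induced factor, stood at 4.99 and 5.84 RPKM with IL-2, 0.352 and 0.335 with IL-21 and 1.10 and 0.908 without cytokine (log2 difference -3.80 ± 0.24, edgeR adjusted p = 9.87e-06). Dusp4, a phosphatase of MAP kinases, stood at 8.65 and 11.9 RPKM with IL-2, 0.946 and 0.918 with IL-21 and 1.81 and 1.70 without cytokine (log2 difference -3.28 ± 0.34, edgeR adjusted p = 9.40e-05). Both were high with IL-2. Of 25 genes of the T cell receptor and its signalling 9 were higher and 3 lower, with small differences such as that of the kinase Fyn at 59.4 and 64.7 RPKM with IL-2 and 106 and 80.4 with IL-21 (log2 difference 0.75 ± 0.15, edgeR adjusted p = 0.00344).

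The glycolysis list had 21 of 23 members lower with IL-21 and 1 higher. Pgk1, phosphoglycerate kinase, stood at 1343 and 1217 RPKM with IL-2, 151 and 79.4 with IL-21 and 96.2 and 87.2 without cytokine, 10.1-fold lower with IL-21 (log2 difference -3.33 ± 0.20, edgeR adjusted p = 8.66e-06). Aldoa, an aldolase, stood at 1592 and 1662 RPKM with IL-2, 206.5 and 120.4 with IL-21 and 188 and 169 without cytokine (log2 difference -3.17 ± 0.16, edgeR adjusted p = 5.45e-06). Its relative Aldoc stood at 91.3 and 88.0 RPKM with IL-2, 2.03 and 1.35 with IL-21 and 1.28 and 0.807 without cytokine (log2 difference -5.57 ± 0.25, edgeR adjusted p = 4.41e-06). Gapdh stood at 3088 and 2923 RPKM with IL-2, 624 and 490.2 with IL-21 and 459 and 429 without cytokine (log2 difference -2.26 ± 0.11, edgeR adjusted p = 4.62e-06). Hk2, the inducible hexokinase of the first step, stood at 21.9 and 11.5 RPKM with IL-2, 1.95 and 1.98 with IL-21 and 1.93 and 2.79 without cytokine (log2 difference -2.91 ± 0.31, edgeR adjusted p = 1.13e-04). Both IL-2 libraries lay above the other 4 for all 5 genes. The median of the list was 2.09 for IL-2 minus no cytokine and 0.04 for IL-21 minus no cytokine, and those 2 comparisons share the libraries without cytokine. Without IL-21 replicate 2 the counts were 1 higher and 21 lower.

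Pyruvate and lactate genes were lower in 16 of 22 and higher in 2. Ldha, the main subunit of lactate dehydrogenase in T cells and the target class of the inhibitor used elsewhere in the series, stood at 1063 and 891 RPKM with IL-2, 359 and 206.7 with IL-21 and 220.3 and 208.7 without cytokine (log2 difference -1.65 ± 0.17, edgeR adjusted p = 9.90e-05). Slc16a3, the lactate exporter MCT4, stood at 64.7 and 33.3 RPKM with IL-2, 4.12 and 2.30 with IL-21 and 2.63 and 3.47 without cytokine (log2 difference -3.79 ± 0.33, edgeR adjusted p = 4.36e-05). Pcx, pyruvate carboxylase, stood at 10.0 and 7.45 RPKM with IL-2, 0.549 and 0.314 with IL-21 and 0.453 and 0.465 without cytokine (log2 difference -4.19 ± 0.23, edgeR adjusted p = 6.34e-06). Bsg, the chaperone of lactate transporters, stood at 175 and 155 RPKM with IL-2, 62.4 and 49.5 with IL-21 and 57.7 and 51.3 without cytokine (log2 difference -1.39 ± 0.11, edgeR adjusted p = 2.31e-05). Each of the 4 was highest with IL-2.

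The list of the hypoxia factor HIF-1, its regulators and its targets was lower with IL-21 in 23 of 26 members tested, and the other 3 were not called. Bnip3, a mitophagy receptor, stood at 139 and 78.8 RPKM with IL-2, 3.27 and 2.46 with IL-21 and 3.22 and 3.58 without cytokine (log2 difference -5.09 ± 0.27, edgeR adjusted p = 6.17e-06). Ndrg1, a hypoxia and stress response gene, stood at 71.1 and 39.7 RPKM with IL-2, 3.09 and 3.27 with IL-21 and 5.95 and 8.35 without cytokine (log2 difference -3.94 ± 0.30, edgeR adjusted p = 2.36e-05). Gbe1, the glycogen branching enzyme, stood at 27.1 and 20.9 RPKM with IL-2, 3.21 and 3.25 with IL-21 and 4.07 and 4.597 without cytokine (log2 difference -2.71 ± 0.18, edgeR adjusted p = 1.29e-05). In these genes the 2 IL-2 libraries were highest, and for Bnip3 and Ndrg1 IL-2 replicate 1 lay well above IL-2 replicate 2. The list's medians were 2.08 for IL-2 and -0.25 for IL-21 against no cytokine.

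Promoters of Pgk1 (chrX:106186850-106187099, + strand) and Bnip3 (chr7:138909507-138909756, - strand) are shown as members of the lists with the lowest medians, as the 250 bases before the RefSeq start in GRCm38.p6. Capitals mark the core of the HIF site, ACGTG or GCGTG, on either strand, and matches that overlap run together.
Pgk1: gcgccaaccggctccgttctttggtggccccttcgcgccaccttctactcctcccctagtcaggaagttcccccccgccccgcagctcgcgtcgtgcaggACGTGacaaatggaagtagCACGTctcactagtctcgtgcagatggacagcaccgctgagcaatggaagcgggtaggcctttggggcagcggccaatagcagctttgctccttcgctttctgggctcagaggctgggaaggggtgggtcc
Bnip3: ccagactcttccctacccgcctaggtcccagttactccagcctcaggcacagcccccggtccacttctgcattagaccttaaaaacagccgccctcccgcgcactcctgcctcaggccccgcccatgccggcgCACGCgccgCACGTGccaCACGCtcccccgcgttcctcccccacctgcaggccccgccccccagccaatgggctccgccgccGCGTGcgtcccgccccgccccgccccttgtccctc
The Pgk1 matches begin 150 and 131 bases before the start, and the Bnip3 promoter holds 5 matches. This short motif was found in 79.2% of 24 promoters of the HIF-1 list and in 68.2% of 22 glycolysis promoters. It was found in 71.4% of both the mitosis and the ATF4 list promoters and in 55.1% of all promoters of genes tested. Promoters of genes called at least 2-fold lower with IL-21 held it in 56.5% and those of genes called at least 2-fold higher in 45.4%.

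Genes of the amino acid response, driven by the factor ATF4, and of amino acid synthesis were lower in 29 of 32 members, and the other 3 were not called. Atf4 itself stood at 137 and 154 RPKM with IL-2, 50.1 and 42.2 with IL-21 and 46.9 and 45.9 without cytokine (log2 difference -1.49 ± 0.10, edgeR adjusted p = 1.19e-05). Asns, asparagine synthetase, stood at 54.1 and 53.7 RPKM with IL-2, 4.42 and 3.96 with IL-21 and 2.98 and 3.86 without cytokine (log2 difference -3.51 ± 0.15, edgeR adjusted p = 4.41e-06). Psat1, of the serine synthesis pathway, stood at 101 and 94.8 RPKM with IL-2, 17.4 and 13.8 with IL-21 and 12.7 and 15.9 without cytokine (log2 difference -2.48 ± 0.13, edgeR adjusted p = 5.32e-06). Phgdh, its first enzyme, stood at 124 and 126 RPKM with IL-2, 29.1 and 17.1 with IL-21 and 33.7 and 29.4 without cytokine (log2 difference -2.29 ± 0.15, edgeR adjusted p = 1.31e-05). Pck2, the mitochondrial PEP carboxykinase, stood at 17.7 and 21.3 RPKM with IL-2, 1.76 and 1.14 with IL-21 and 4.07 and 4.48 without cytokine (log2 difference -3.59 ± 0.17, edgeR adjusted p = 4.62e-06). All 5 were high in the IL-2 libraries only. Pck2 was also lower with IL-21 than without cytokine in each library. The list's medians were 1.62 for IL-2 and 0.21 for IL-21 against no cytokine.

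The 250 bases before the RefSeq starts of Asns (chr6:7693210-7693459, - strand) and Pck2 (chr14:55540016-55540265, + strand) hold the composite motif bound by ATF4 with C/EBP proteins, TGATGNAA, in capitals on either strand.
Asns: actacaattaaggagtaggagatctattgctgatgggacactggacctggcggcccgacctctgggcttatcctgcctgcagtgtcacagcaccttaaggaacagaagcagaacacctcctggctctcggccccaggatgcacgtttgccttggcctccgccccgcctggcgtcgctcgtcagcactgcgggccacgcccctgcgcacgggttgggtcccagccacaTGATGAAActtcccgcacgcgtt
Pck2: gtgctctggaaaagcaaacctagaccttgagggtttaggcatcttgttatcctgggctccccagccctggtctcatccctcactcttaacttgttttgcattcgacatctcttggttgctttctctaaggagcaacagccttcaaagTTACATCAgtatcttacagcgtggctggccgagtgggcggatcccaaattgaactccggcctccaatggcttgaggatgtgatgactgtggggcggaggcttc
The match begins 23 bases before the start in Asns and 103 bases before it in Pck2. The motif was found in 8 of 28 promoters of the list (28.6%) and in 2.09% of the promoters of genes tested. Promoters of genes called at least 2-fold lower with IL-21 held it in 2.42% and those of genes called at least 2-fold higher in 2.65%.

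Amino acid transporters were lower in 7 of 17 and higher in 3. Slc7a5, the large neutral amino acid transporter LAT1, stood at 61.8 and 68.2 RPKM with IL-2, 14.7 and 9.93 with IL-21 and 8.196 and 10.3 without cytokine (log2 difference -2.24 ± 0.14, edgeR adjusted p = 1.07e-05). Slc3a2, its heavy chain CD98, stood at 56.2 and 65.0 RPKM with IL-2, 22.8 and 23.9 with IL-21 and 24.2 and 26.2 without cytokine (log2 difference -1.19 ± 0.14, edgeR adjusted p = 2.22e-04). Both were lower with IL-21 than with IL-2. In RPKM, Slc7a5 lay above both libraries without cytokine in IL-21 replicate 1, but not in replicate 2, where RPKM runs low. Slc43a1, a further neutral amino acid transporter, stood at 2.12 and 1.89 RPKM with IL-2, 8.31 and 5.37 with IL-21 and 9.79 and 8.42 without cytokine and was higher with IL-21 (log2 difference 1.92 ± 0.17, edgeR adjusted p = 4.04e-05). Nucleotide and one-carbon genes were lower in 16 of 30 and higher in 1, among them Ahcy, which clears S-adenosylhomocysteine, at 79.7 and 80.6 RPKM with IL-2, 26.8 and 15.7 with IL-21 and 17.6 and 17.1 without cytokine (log2 difference -1.77 ± 0.15, edgeR adjusted p = 3.09e-05). Mthfd1l, of mitochondrial one-carbon metabolism, stood at 44.4 and 38.5 RPKM with IL-2, 14.9 and 11.9 with IL-21 and 12.2 and 11.1 without cytokine (log2 difference -1.46 ± 0.11, edgeR adjusted p = 1.89e-05).

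The sterol and fatty acid synthesis list, which holds the SREBP factors, many of their targets and some other genes, was lower in 31 of 36 members and higher in 2. Scd2, a fatty acid desaturase, stood at 306 and 246 RPKM with IL-2, 27.6 and 23.9 with IL-21 and 17.8 and 17.2 without cytokine (log2 difference -3.25 ± 0.15, edgeR adjusted p = 4.62e-06). Fdps, of the mevalonate pathway, stood at 145 and 156 RPKM with IL-2, 24.9 and 15.4 with IL-21 and 16.3 and 19.3 without cytokine (log2 difference -2.75 ± 0.17, edgeR adjusted p = 9.90e-06). Fdft1, which makes squalene, stood at 34.0 and 38.3 RPKM with IL-2, 7.76 and 7.83 with IL-21 and 6.30 and 6.86 without cytokine (log2 difference -2.03 ± 0.14, edgeR adjusted p = 1.29e-05). The IL-2 libraries of these genes lay above all others, and those with IL-21 were near those without cytokine. The list's medians were 1.77 for IL-2 and 0.36 for IL-21 against no cytokine.

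TCA cycle genes were lower in 9 of 20, with a median of -0.37, and respiratory chain genes in 13 of 46, with a median of -0.38. Cs, citrate synthase, stood at 112 and 113 RPKM with IL-2, 72.5 and 48.6 with IL-21 and 57.8 and 52.9 without cytokine (log2 difference -0.74 ± 0.11, edgeR adjusted p = 8.52e-04). Uqcrc2, a core protein of complex III, stood at 97.2 and 103 RPKM with IL-2, 58.2 and 38.9 with IL-21 and 55.1 and 51.5 without cytokine (log2 difference -0.89 ± 0.11, edgeR adjusted p = 2.71e-04). For both the IL-21 libraries lay below the IL-2 libraries. Without IL-21 replicate 2 the respiratory chain list had 11 members lower and a median of -0.08. Fatty acid oxidation genes were lower in 7 of 23 and higher in 3, with Hadh, an enzyme of that pathway, at 34.2 and 34.8 RPKM with IL-2 and 14.5 and 11.5 with IL-21 (log2 difference -1.24 ± 0.10, edgeR adjusted p = 2.87e-05) and Ppargc1b, a coactivator of mitochondrial genes, at 1.12 and 1.28 RPKM with IL-2 and 2.89 and 2.24 with IL-21 (log2 difference 1.26 ± 0.16, edgeR adjusted p = 3.21e-04). Redox and pentose phosphate genes were lower in 9 of 27 and higher in 3, with transketolase, Tkt, at 144 and 153 RPKM with IL-2, 63.5 and 42.2 with IL-21 and 50.2 and 52.1 without cytokine (log2 difference -1.34 ± 0.12, edgeR adjusted p = 4.42e-05) and Gclc, the first enzyme of glutathione synthesis, at 11.6 and 10.4 RPKM with IL-2, 20.2 and 20.8 with IL-21 and 19.6 and 21.1 without cytokine (log2 difference 1.08 ± 0.13, edgeR adjusted p = 2.38e-04). Polyamine and iron genes were lower in 6 of 21 and higher in 3, with Sms, spermine synthase, at 35.4 and 34.4 RPKM with IL-2, 14.0 and 12.4 with IL-21 and 19.6 and 20.1 without cytokine (log2 difference -1.22 ± 0.10, edgeR adjusted p = 2.88e-05).

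Most cell division genes were lower with IL-21. Of 27 mitosis genes 26 were lower, and of 28 DNA replication genes 27, with 1 of each not called. Kif11, the mitotic kinesin that separates spindle poles, stood at 79.0 and 73.3 RPKM with IL-2, 17.6 and 16.3 with IL-21 and 12.5 and 14.0 without cytokine (log2 difference -1.99 ± 0.12, edgeR adjusted p = 7.20e-06). Top2a, the topoisomerase of dividing cells, stood at 250.2 and 209.4 RPKM with IL-2, 64.2 and 50.5 with IL-21 and 39.4 and 42.0 without cytokine (log2 difference -1.84 ± 0.12, edgeR adjusted p = 1.29e-05). Foxm1, a transcription factor of mitotic genes, stood at 27.2 and 26.3 RPKM with IL-2, 8.38 and 6.04 with IL-21 and 6.25 and 4.70 without cytokine (log2 difference -1.73 ± 0.14, edgeR adjusted p = 2.74e-05). With IL-21 these genes lay far below IL-2 in every library, and Kif11 and Top2a lay above both libraries without cytokine. Lig1, the ligase of DNA replication, stood at 56.1 and 48.4 RPKM with IL-2, 14.5 and 10.9 with IL-21 and 11.1 and 11.98 without cytokine (log2 difference -1.88 ± 0.11, edgeR adjusted p = 8.22e-06). Uhrf1, which carries DNA methylation through replication, stood at 58.9 and 51.6 RPKM with IL-2, 15.9 and 11.96 with IL-21 and 8.95 and 9.68 without cytokine (log2 difference -1.82 ± 0.11, edgeR adjusted p = 8.97e-06). The medians of the mitosis list were 2.18 for IL-2 and 0.59 for IL-21 against no cytokine.

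The promoter of Kif11 (GRCm38.p6, chr19:37376132-37376381, + strand) is shown as a mitosis gene with a match to the cell cycle element CHR, TTTGAA, in capitals on either strand, 19 bases before the RefSeq start.
Kif11: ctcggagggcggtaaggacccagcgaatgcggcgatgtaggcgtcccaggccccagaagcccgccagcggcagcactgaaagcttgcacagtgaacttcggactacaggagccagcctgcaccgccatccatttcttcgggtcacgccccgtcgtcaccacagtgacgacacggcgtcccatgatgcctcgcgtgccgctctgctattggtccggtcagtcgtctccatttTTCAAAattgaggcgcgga
The element was found in 28.6% of 21 mitosis promoters and in 10.9% of promoters of genes tested. An E2F motif, TTTNNCGC, was found in 33.3% of 24 DNA replication promoters against 6.90%. Promoters of genes called at least 2-fold lower with IL-21 held the CHR in 11.1% and the E2F motif in 7.62%. In those of genes called at least 2-fold higher the shares were 11.8% and 3.83%.

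Cyclins and inhibitors of the G1 phase were lower in 14 of 25 and higher in 4. Cdk6, a kinase of G1, stood at 28.3 and 25.5 RPKM with IL-2, 6.29 and 6.41 with IL-21 and 7.31 and 8.13 without cytokine (log2 difference -1.90 ± 0.16, edgeR adjusted p = 3.09e-05). E2f1, an S phase factor, stood at 9.64 and 7.87 RPKM with IL-2, 3.10 and 3.12 with IL-21 and 2.97 and 3.12 without cytokine (log2 difference -1.31 ± 0.18, edgeR adjusted p = 4.10e-04). Myc, the growth factor-induced driver of ribosome synthesis and metabolism, stood at 89.9 and 85.2 RPKM with IL-2, 44.0 and 49.4 with IL-21 and 28.0 and 29.2 without cytokine (log2 difference -0.71 ± 0.14, edgeR adjusted p = 0.00361). Its IL-21 libraries lay between the other 2 groups. Mxd1, an antagonist of MYC, stood at 5.54 and 5.48 RPKM with IL-2, 13.5 and 11.3 with IL-21 and 5.02 and 6.37 without cytokine (log2 difference 1.34 ± 0.13, edgeR adjusted p = 8.19e-05) and was highest with IL-21. Ribosome biogenesis genes, known MYC targets, were higher in 10 of 30 and lower in 6. Npm1, nucleophosmin, stood at 1488 and 1445 RPKM with IL-2, 429 and 481 with IL-21 and 382 and 468 without cytokine (log2 difference -1.496 ± 0.18, edgeR adjusted p = 2.24e-04). Ubtf, a factor of ribosomal RNA transcription, stood at 17.4 and 17.0 RPKM with IL-2, 34.4 and 26.4 with IL-21 and 42.1 and 33.4 without cytokine (log2 difference 0.98 ± 0.12, edgeR adjusted p = 2.36e-04).

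Chromatin regulators were lower in 14 of 30 and higher in 6. Ezh2, the polycomb methyltransferase, stood at 85.6 and 74.4 RPKM with IL-2, 27.5 and 21.9 with IL-21 and 27.7 and 25.6 without cytokine (log2 difference -1.53 ± 0.12, edgeR adjusted p = 2.38e-05). Dnmt1, the maintenance DNA methyltransferase, stood at 73.2 and 62.1 RPKM with IL-2, 29.0 and 23.3 with IL-21 and 29.2 and 26.6 without cytokine (log2 difference -1.20 ± 0.12, edgeR adjusted p = 9.74e-05). Those 2 genes are also known to be higher in dividing cells. Chaperones and unfolded protein response genes of the endoplasmic reticulum were lower in 10 of 24 and higher in 4, with Herpud1 at 31.0 and 37.2 RPKM with IL-2 and 17.5 and 13.8 with IL-21 (log2 difference -0.95 ± 0.11, edgeR adjusted p = 2.04e-04). Of 26 autophagy and lysosome genes, 8 were called higher and 2 lower, with Ctsa, a lysosomal protease, at 23.6 and 25.1 RPKM with IL-2, 74.1 and 52.7 with IL-21 and 40.5 and 34.6 without cytokine (log2 difference 1.54 ± 0.11, edgeR adjusted p = 1.73e-05). Nuclear and noncoding RNAs were higher in 6 of 11 and lower in 4. Malat1 stood at 106 and 88.0 RPKM with IL-2, 205.8 and 184 with IL-21 and 219.8 and 194 without cytokine (log2 difference 1.18 ± 0.16, edgeR adjusted p = 3.75e-04). Snhg1, a host gene of small nucleolar RNAs, stood at 175 and 218 RPKM with IL-2, 72.8 and 54.4 with IL-21 and 49.0 and 55.3 without cytokine (log2 difference -1.46 ± 0.13, edgeR adjusted p = 4.41e-05). Without IL-21 replicate 2 that list had 3 higher and 4 lower.

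Interferon-stimulated genes were higher with IL-21 in 15 of 38 and lower in 7. Oas2, an antiviral synthetase, stood at 0.193 and 0.267 RPKM with IL-2, 4.55 and 5.48 with IL-21 and 0.973 and 1.37 without cytokine (log2 difference 4.64 ± 0.32, edgeR adjusted p = 1.38e-05). Zbp1, a sensor of viral nucleic acid, stood at 18.4 and 22.1 RPKM with IL-2, 69.5 and 65.5 with IL-21 and 44.5 and 42.4 without cytokine (log2 difference 1.92 ± 0.12, edgeR adjusted p = 9.87e-06). Ifit3, which binds viral RNA complexes, stood at 2.07 and 3.31 RPKM with IL-2, 13.7 and 10.6 with IL-21 and 8.62 and 11.3 without cytokine (log2 difference 2.34 ± 0.22, edgeR adjusted p = 6.47e-05). Irf7, the factor that amplifies interferon production, stood at 8.97 and 8.79 RPKM with IL-2, 22.9 and 15.7 with IL-21 and 23.0 and 22.1 without cytokine (log2 difference 1.28 ± 0.13, edgeR adjusted p = 9.15e-05). Oas2 and Zbp1 were highest with IL-21, while Irf7 resembled the level without cytokine.

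The summed markers of myeloid cells, basophils, neutrophils and platelets were low with IL-2, higher with IL-21 and highest without cytokine. The summed level of 9 macrophage, monocyte and dendritic cell markers was 11.8 and 14.2 RPKM with IL-2, 59.7 and 62.2 with IL-21 and 139.8 and 180.2 without cytokine, with 8 called higher. Cd68, a lysosomal protein, was the member that was not called and made up most of the IL-2 sum, at 9.18 and 12.2 RPKM with IL-2, 6.35 and 8.25 with IL-21 and 9.59 and 9.76 without cytokine. It was called lower without IL-21 replicate 2 (log2 difference -0.73, edgeR adjusted p = 0.0145). That of 7 basophil and mast cell markers was 4.16 and 4.82 RPKM with IL-2, 105 and 133 with IL-21 and 321 and 673 without cytokine, with 7 higher. For 4 neutrophil markers it was 0.490 and 0.247 RPKM with IL-2, 10.0 and 17.7 with IL-21 and 29.0 and 42.3 without cytokine, with 4 higher, and for 5 erythroid and platelet markers 7.02 and 8.52 RPKM with IL-2, 233 and 259.6 with IL-21 and 385 and 607 without cytokine, with 3 higher. Nearly all of the latter sum came from the platelet genes Pf4 and Ppbp in the libraries with IL-21 and without cytokine. Lyz2, the lysozyme of myeloid cells, stood at 1.66 and 1.11 RPKM with IL-2, 33.4 and 35.8 with IL-21 and 113 and 149 without cytokine (log2 difference 4.84 ± 0.41, edgeR adjusted p = 3.46e-05). Mcpt8, a basophil protease, stood at 1.20 and 1.27 RPKM with IL-2, 42.4 and 44.4 with IL-21 and 133 and 257 without cytokine (log2 difference 5.32 ± 0.39, edgeR adjusted p = 1.70e-05). Pf4, a platelet chemokine, stood at 2.84 and 4.27 RPKM with IL-2, 107 and 87.9 with IL-21 and 201 and 257 without cytokine (log2 difference 4.94 ± 0.21, edgeR adjusted p = 4.41e-06). The summed CD8 T cell markers, in contrast, were 1479 and 1595 RPKM with IL-2, 1854 and 1322 with IL-21 and 1876 and 1505 without cytokine, with 3 of 7 called higher and 1 lower. The 3 NK cell markers summed to 1.69 and 1.98 RPKM with IL-2, 1.93 and 2.47 with IL-21 and 1.64 and 2.02 without cytokine. The 5 B cell markers summed to 9.34 and 8.46 RPKM with IL-2, 19.6 and 4.91 with IL-21 and 19.8 and 8.74 without cytokine. Cd79a, a chain of the B cell receptor complex, stood at 0.349 and 0.0545 RPKM with IL-2, 4.55 and 0.299 with IL-21 and 4.48 and 0.518 without cytokine, higher in replicate 1 of each group. Cd79a was not called (log2 difference 3.67 ± 1.62, edgeR adjusted p = 0.0881). Of 3 CD4 T cell markers 2 were lower with IL-21, with sums of 10.8 and 10.6 RPKM with IL-2, 3.25 and 2.42 with IL-21 and 3.70 and 2.91 without cytokine. The summed myeloid, basophil, neutrophil and platelet markers had the same order of groups as Prg2, Car1, Clec1b, Csf2rb, Tyrobp and Fcgr3 above. Mpo and Ppbp, also named above, are themselves members of the neutrophil and platelet lists. The part of such cells in those results was not tested.

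**Figure D4:**
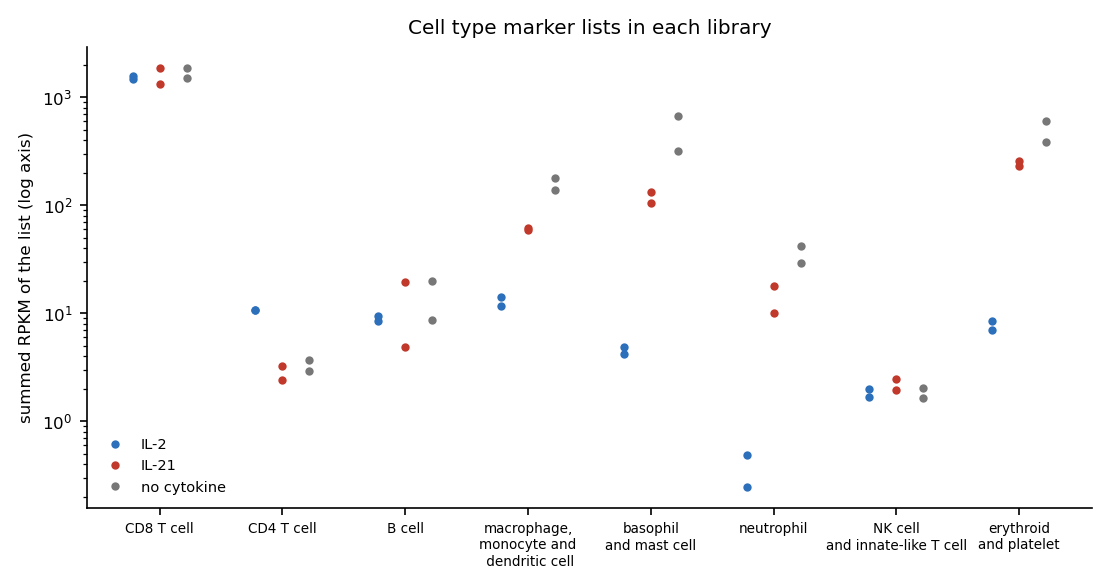
Points are the summed RPKM of each cell type marker list in each library on a log axis, for IL-2 (blue), IL-21 (red) and no cytokine (grey). CD8 T cell markers lie between 1322 and 1876 RPKM in the 6 libraries, and the macrophage, basophil, neutrophil and platelet lists lie lowest with IL-2 and highest without cytokine.

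The same cytokine contrast was also measured with LDHi in the other 4 libraries, and the difference between the 2 differences was called for 3124 genes (21.8%). That count was between 1750 and 1951 without any 1 library of IL-2, IL-2 with LDHi or IL-21 with LDHi, 5203 without IL-21 replicate 1 and 3923 without IL-21 replicate 2. Of 21 genes chosen with the lists 15 were among them. Gzmb, not called without the inhibitor, stood at 83.4 and 92.8 RPKM with IL-2 and LDHi and 2.22 and 1.65 with IL-21 and LDHi, a log2 difference of -5.33 ± 0.29 against -0.49 ± 0.23 without (interaction -4.84 ± 0.36, edgeR adjusted p = 4.00e-05). Ifng stood at 4.24 and 4.25 RPKM with IL-2 and LDHi and 0.507 and 0.281 with IL-21 and LDHi, so that the sign turned from 2.67 ± 0.24 to -3.25 ± 0.29 (interaction -5.92 ± 0.38, edgeR adjusted p = 1.64e-05). Cish stood at 38.4 and 38.7 RPKM with IL-2 and LDHi and 0.321 and 0.480 with IL-21 and LDHi and differed by -6.41 ± 0.30 in place of -2.92 ± 0.24 (interaction -3.49 ± 0.36, edgeR adjusted p = 2.52e-04). With the inhibitor these 3 genes were lower with IL-21 in every library. Bcl2 differed less with the inhibitor, by -0.82 ± 0.16 (interaction 1.80 ± 0.23, edgeR adjusted p = 8.54e-04), and so did Ldha, by -0.50 ± 0.17 (interaction 1.15 ± 0.24, edgeR adjusted p = 0.00861). For Socs3 the difference was 3.78 ± 0.17 with the inhibitor and not called as different (interaction -0.17 ± 0.21, edgeR adjusted p = 0.616), for Asns -3.11 ± 0.21 (interaction 0.40 ± 0.28, edgeR adjusted p = 0.348), and for Il2ra -4.09 ± 0.36 (interaction -0.59 ± 0.46, edgeR adjusted p = 0.402). The summed basophil and neutrophil markers were low with LDHi under either cytokine. Those of macrophages were 12.5 and 17.9 RPKM with IL-2 and LDHi, against 11.8 and 14.2 with IL-2 alone. With IL-21 and LDHi they were 6.32 and 8.46 RPKM. Cd68, most of the sum with IL-2 alone (9.18 and 12.2 RPKM), stood at 3.85 and 3.89 with IL-2 and LDHi. The other members together were thus higher with IL-2 and LDHi than with IL-2 alone. Lyz2 stood at 6.13 and 11.2 RPKM with IL-2 and LDHi and 2.06 and 3.81 with IL-21 and LDHi, above its level with IL-2 alone. Mcpt8 stood at 0.152 and 0.149 RPKM with IL-2 and LDHi and 0.0730 and 0.285 with IL-21 and LDHi, below its level with IL-2 alone.

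**Figure D5:**
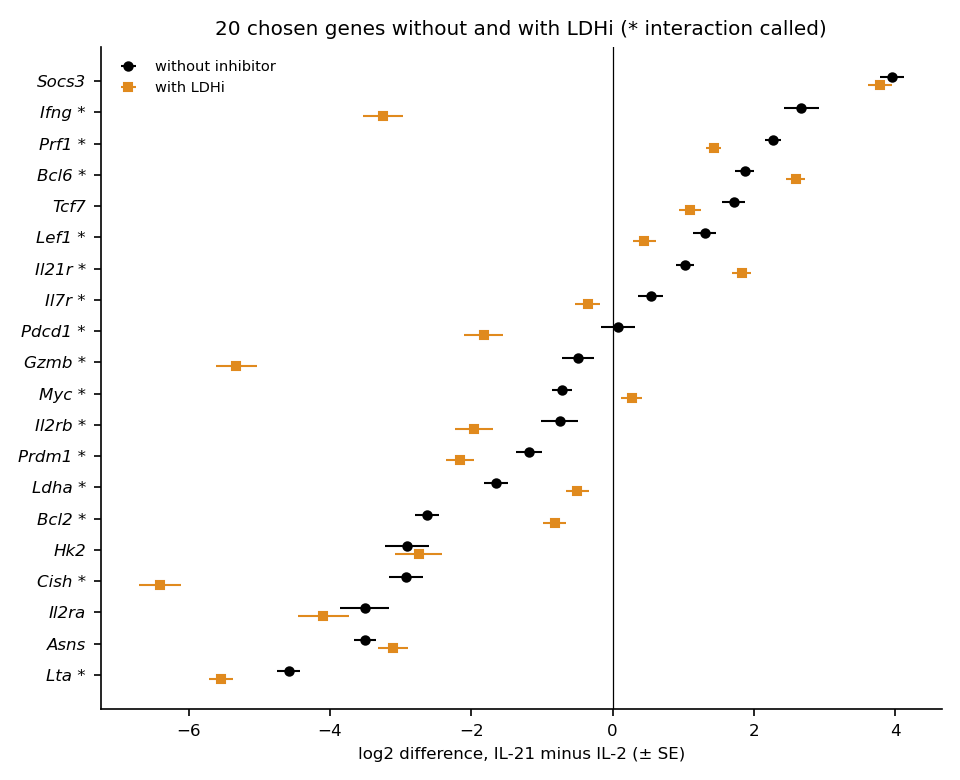
Points are the log2 difference between IL-21 and IL-2 with its standard error, without inhibitor (black circles) and with LDHi (orange squares), for 20 of the 21 genes, and a star marks the 15 whose interaction was called. Ifng, Il7r and Myc lie on opposite sides of 0, as does Pdcd1, which was near 0 without the inhibitor. Socs3, Hk2 and Asns lie close together.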

How the data were processed

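Each library was made from 500 ng of RNA with the Kapa mRNA HyperPrep kit and sequenced on a HiSeq3000, per the labels' protocols. The deposited tables hold whole-number read counts and RPKM per RefSeq transcript for 31682 transcripts. Per the submitters' processing notes the authors used Bowtie2 2.2.6, TopHat2 2.2.1, SAMtools 0.1.8, bedtools 2.25.0 and edgeR with the mm10 build. The counting program, the annotation release and the use of strand are not given in the sources used here, so reads of overlapping or antisense genes may not be separated. RPKM is the authors' value and is printed as deposited.

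For each of 23992 symbols the transcript with most reads over all 10 libraries was kept (4343 symbols had several). Genes passed edgeR's filterByExpr (minimum count 10, minimum total 15), which left 14357. A quasi-likelihood model of all 10 libraries with TMM scaling (edgeR 4.0.16, R 4.3.3) gave the IL-21 minus IL-2 difference and its interaction with LDHi, with Benjamini-Hochberg adjustment over all genes tested. Standard errors are the log2 difference divided by the square root of the test's F value. Replicate numbers were not treated as pairs. DESeq2 1.42.0 and limma 3.58.1 were alternatives.

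The members and the 47 gene lists were chosen with earlier results of these data known. Of 968 list genes found, 950 were tested and 18 had too few reads. Genes named were the 10 largest called differences in each direction with libraries that did not overlap and a mean of 5 RPKM or more in 1 of the 2 groups, the 6 members of a list with the lowest p, its 2 most abundant members that were not called, and 21 fixed genes, and not all of them are described; results for 4 of them are not reported here. Promoters came from a RefSeq table of GRCm38.p6, which matched 10500 of the genes tested.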

Additional observations from a re-analysis of the deposited data

Results flagged for a closer look

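The IL-21 minus IL-2 difference with LDHi differed from that without it for 15 of 21 fixed genes, by edgeR's interaction test. Those genes were chosen with earlier results of these data known. Over all genes tested the interaction was called for 3124 of 14357 (21.8%). Whether the 15 calls hold in the alternative fits was not tested. The interaction, with LDHi minus without on the log2 scale, was -4.84 for Gzmb, -5.92 for Ifng, -3.49 for Cish and -1.90 for Pdcd1. It was -0.83 for Prf1, -0.96 for Lta, -0.85 for Lef1 and -0.98 for Prdm1. Among receptor genes it was -0.89 for Il7r, -1.21 for Il2rb and 0.80 for Il21r. It was positive for Bcl6 (0.72), Ldha (1.15), Myc (0.98) and Bcl2 (1.80). Pdcd1 was not called without the inhibitor and stood at 1.62 and 1.47 RPKM with IL-2 and LDHi and 0.348 and 0.424 with IL-21 and LDHi.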

How the results depend on the processing

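The count of genes called higher fell from 3580 to 2207 with a filter of 5 RPKM in 2 libraries, to 1698 at a minimum of 1.5-fold, to 2131 with only the 4 libraries compared, and to 1840 by limma on log2(RPKM + 1). The count called lower was 3543, and 2142 with the RPKM filter and 1843 at 1.5-fold. Fewer genes were tested with the filter, where 4349 of 8673 were called in either direction, beside 7123 of 14357 in the main fit. The 1.5-fold test asks for a difference beyond that fold and is stricter by design. The cause of the shifts with only the 4 libraries and by limma was not tested. Leaving out 1 library at a time gave 2055 to 4187 higher genes, 2454 to 4183 lower genes and 1750 to 5203 genes with a called interaction. Without IL-21 replicate 2 the IL-21 group had 1 library, whose spread was assumed to be that of the other groups, and 2846 of the higher and 3080 of the lower genes were called again. Same-numbered replicates did not deviate together in every pair of groups (correlations of -0.146 to 0.481, and -0.132 between IL-2 and IL-21), and the fit with a replicate block called 3505 higher and 3526 lower genes and 3026 interactions. A crossed pairing of the numbers, chosen after seeing the data, called 3289 and 3346. A fit with GC content and length trends taken out, also chosen after seeing the data, called 3613 and 4119. Pdcd1, not called, ranged from -0.33 to 0.38 when 1 library was left out, with -0.04 when that was IL-2 replicate 1, and was -0.11 by limma. Of the 160 called genes named, 151 kept call and direction under each alternative that tested them (21 or 22 a gene). Most were named for a low p or a large difference in this same comparison, so that share does not describe all called genes. Cd8b1, Cs, Fyn, Myc and Stat5a lost the call only at 1.5-fold. Genes with few reads, such as Klrg1 with IL-2, are imprecise, and 2 libraries a group limit every test. Cd79a, not called otherwise, was called with the replicate number as a block (log2 difference 3.42, edgeR adjusted p = 0.000602) and with the numbers crossed (log2 difference 4.71, edgeR adjusted p = 0.0463).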
